A study of Homo sapiens with 12 samples.

Results

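ATM, ATR, ATRIP, TOPBP1, CLSPN, TP53BP1, MDC1, H2AFX, CHEK1 and CHEK2 encode the core of the DNA damage checkpoint, and their transcripts were followed in HEK 293T cells given a compound named PDP. The 10 genes were taken by symbol from RNA tables of 58083 genes, and all 10 were tested in all 3 tables. The symbol ATRIP stood beside 2 gene IDs, and its values below are those of ENSG00000164053.18 unless the other is named.

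HEK 293T, an established line derived from human embryonic kidney, expresses large T antigen of SV40. Large T binds host proteins of cell cycle control, which limits the line as a model of the checkpoint. The series paired a small-molecule capture of G-quadruplexes, structures formed by runs of guanine in DNA, with a measure of transcripts under 1 µM PDP. There were 12 samples in 6 groups of 2. They were a DNA pull-down labelled as annealed, its input, and RNA from cells given DMSO for 3 h or PDP for 3 h, 24 h or 72 h.

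Breaks and stalled forks in DNA are sensed by kinases. ATM is recruited to double-strand breaks, and ATR, bound to its partner ATRIP, to single-stranded DNA coated by RPA, where TOPBP1 activates it. The kinases phosphorylate the histone variant H2AX, made by H2AFX, and the mediators MDC1, 53BP1 and claspin. These bring in and activate the effector kinases CHK1 and CHK2, which hold the cell cycle. Most of this signalling runs through phosphorylation, which RNA does not measure.

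The authors' deposited tables give 1 pooled value per gene and condition in FPKM (fragments scaled by transcript length and by library total). Single libraries are therefore not visible, an SD over replicates cannot be given, and the depth is unknown. A gene is "called" where its deposited q-value is under 0.05. The sample titles mark the replicates "bio", but the labels do not say whether they were separate cultures. The p-values may therefore measure only technical spread. The control column was the same in all 3 tables up to a factor of 1.04 at 24 h and 0.968 at 72 h relative to 3 h (SD 0.000842 and 0.000859 on the log2 scale, 13455 genes). The 24 h and 72 h comparisons thus share the 3 h control, and time in culture and PDP cannot be told apart in them. Of the markers of the line, VIM, KRT8, KRT18, NEFL, NEFM and LIN28B lay between 17.6 and 259 FPKM in the control and PAX2 at 0.896 FPKM, while PTPRC, PECAM1 and ALB lay at or under 0.0869 FPKM and COL1A1 at 12.6 FPKM. Of these 7 markers of the line, none was called at 3 h, 4 rose at 24 h (NEFL, NEFM, PAX2 and KRT8) and 6 at 72 h (these, VIM and LIN28B) in the authors' deposited tables. NEFL stood at 48.7 FPKM at 24 h (control 24.0) and 102 FPKM at 72 h (control 22.4), and NEFM at 87.0 FPKM (control 40.6) and 151 FPKM (control 37.8). The summed level of the 7 was 394, 518 and 814 FPKM with PDP at 3 h, 24 h and 72 h, beside 410, 426 and 398 FPKM in the control columns. The 4 markers of other cell types summed to 10.0, 23.2 and 23.2 FPKM with PDP, beside 12.6, 13.1 and 12.2 FPKM, nearly all of it COL1A1, and none was called. Their part in the results below was not tested.

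After 3 h of PDP none of the checkpoint genes was called, and at 24 h CLSPN, H2AFX and ATRIP fell by close to the same amount. At 72 h ATRIP was called lower and H2AFX higher than the control, and the other 8 genes were not called. The authors' deposited tables thus called 0 of 10 members at 3 h, where 0.115% of 14751 tested genes were called, 0.108% higher and 0.00678% lower. At 24 h 3 of 10 members were called, all lower, against 17.5% of all tested genes in either direction, 9.21% higher and 8.29% lower. At 72 h 2 of 10 were called, 1 higher and 1 lower, against 31.8% in either direction, 19.0% higher and 12.8% lower. The members called were 3 of 10 at 24 h and 2 of 10 (20%) at 72 h, too few to set their share apart from that of all genes. At an unadjusted p under 0.05 the members numbered 0, 3 and 3, beside 1.91%, 29.6% and 40.4% of all tested genes, and the member added at 72 h was CLSPN.

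The median log2 fold change of PDP over control across the 10 genes came to -0.0096 (3 h), -0.29 (24 h) and 0.21 (72 h). Over all tested genes it was -0.0026, -0.0029 and 0.13. Values ranged from -0.23 to 0.031 at 3 h, from -0.94 to 0.35 at 24 h and from -1.58 to 0.58 at 72 h. At 24 h 7 of the 10 values lay below the control, and at 72 h 7 lay above it. Scaling each condition to the same sum of FPKM shifts all genes by 0.17 (24 h) and -0.10 (72 h), and no called member changed direction under it.

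**Figure D1:**
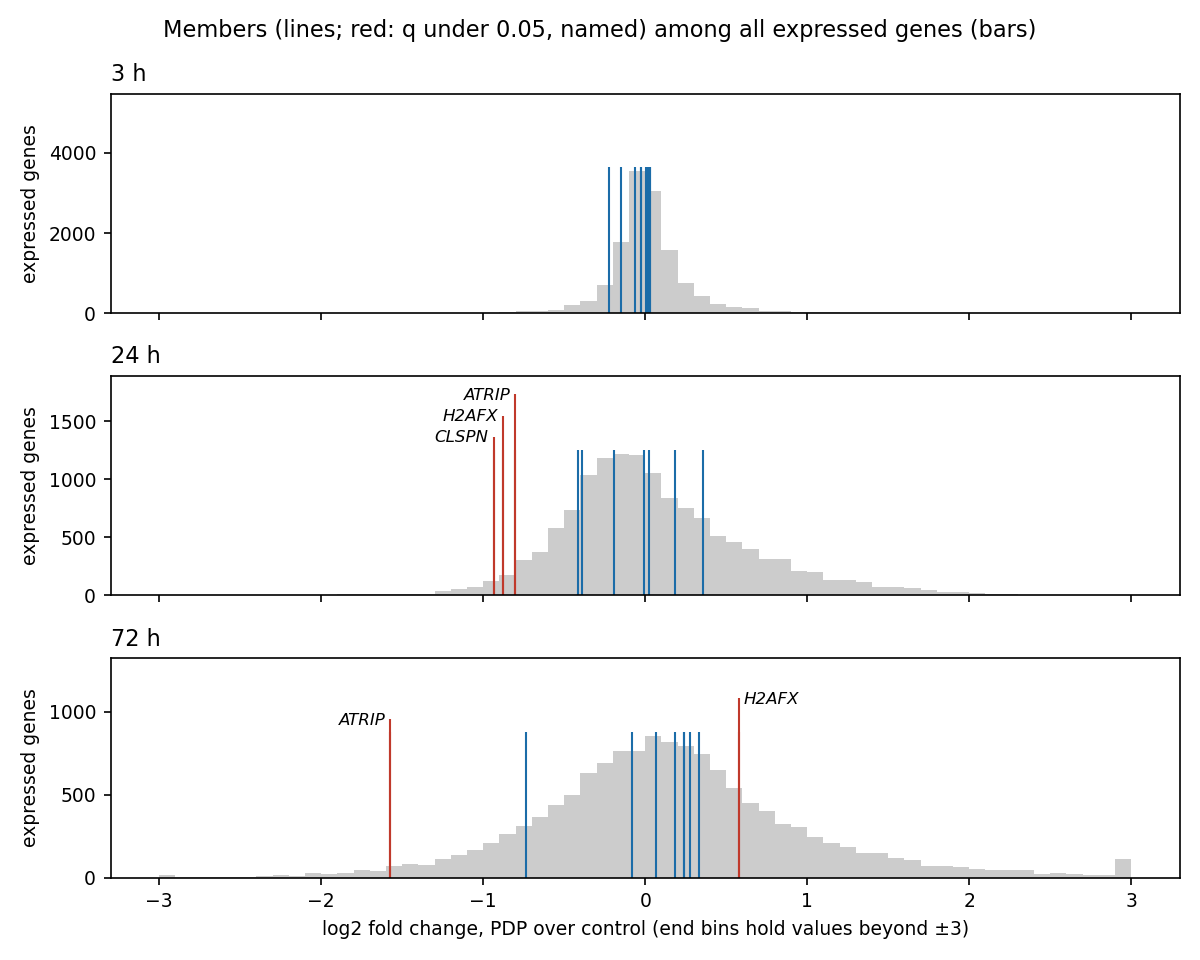
The horizontal axis is the log2 fold change of PDP over control at 3 h, 24 h and 72 h, and grey bars count the expressed genes in steps of 0.1. Vertical lines are the 10 checkpoint genes, red and named where called. At 24 h the red lines of CLSPN, H2AFX and ATRIP stand together on the left, and at 72 h ATRIP stands far to the left and H2AFX to the right.

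The SE beside each log2 fold change below is the one implied by the deposited test statistic. It ran from 0.22 to 0.69 over the members at 3 h, with a median of 0.43 against 0.37 over all expressed genes. The deposited p-value was smaller than a normal distribution gives for the deposited statistic in 30 of the 30 comparisons of members, so this SE is wide for the p-value it accompanies. A smaller error would go with the deposited p-values, but a member that was not called may still have changed by a sizeable fraction. CLSPN at 72 h, with a log2 fold change of -0.74, was not called.

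Promoter windows of the 3 genes called at 24 h are shown first, because PDP was studied beside a capture of G-quadruplexes and such structures need runs of guanine on 1 strand. Each window, from RefSeq on GRCh38.p14, runs from 250 bases before to 50 bases after the annotated start, in the direction of the gene. Capitals mark runs of 3 or more G or C. CLSPN is on the minus strand at chr1:35769929-35770228, H2AFX on the minus strand at chr11:119095416-119095715, and ATRIP on the plus strand at chr3:48446487-48446786.
CLSPN: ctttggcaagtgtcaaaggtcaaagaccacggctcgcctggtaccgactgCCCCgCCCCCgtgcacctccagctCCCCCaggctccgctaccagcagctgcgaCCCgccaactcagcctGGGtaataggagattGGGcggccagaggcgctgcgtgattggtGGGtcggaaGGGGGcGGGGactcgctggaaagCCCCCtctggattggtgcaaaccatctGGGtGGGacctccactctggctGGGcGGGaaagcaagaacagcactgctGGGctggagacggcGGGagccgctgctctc
H2AFX: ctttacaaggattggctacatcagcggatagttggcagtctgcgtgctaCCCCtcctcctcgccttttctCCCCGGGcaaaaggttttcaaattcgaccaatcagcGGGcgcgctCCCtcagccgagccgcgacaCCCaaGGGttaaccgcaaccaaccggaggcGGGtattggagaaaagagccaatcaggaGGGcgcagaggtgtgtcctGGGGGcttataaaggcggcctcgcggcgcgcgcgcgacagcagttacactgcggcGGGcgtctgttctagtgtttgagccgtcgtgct
ATRIP: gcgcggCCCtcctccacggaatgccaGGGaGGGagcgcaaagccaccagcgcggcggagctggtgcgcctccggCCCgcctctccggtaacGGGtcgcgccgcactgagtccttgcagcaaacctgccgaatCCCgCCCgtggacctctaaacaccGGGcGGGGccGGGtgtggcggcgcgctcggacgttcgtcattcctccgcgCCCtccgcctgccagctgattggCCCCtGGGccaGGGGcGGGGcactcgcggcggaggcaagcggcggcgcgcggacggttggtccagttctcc

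Guanine runs were present in all 3 windows, but none of these windows held the spacing used to search for a G-quadruplex. The search asked for 4 runs of GGG, or 4 of CCC for the other strand, with 1 to 7 letters between neighbouring runs. Windows of 3 of the 10 members held it, and 36.2% of 15843 protein-coding genes did. The members with a match were ATR, TOPBP1 and TP53BP1, all on the strand opposite to the gene, and none of them was called at any time. Whether a match bears on the calls was not tested. The matching stretches, with the C runs in capitals, are given for comparison with the windows above. They lie in the windows chr3:142578684-142578983, chr3:133661892-133662191 and chr15:43510591-43510890, all on the minus strand, and TOPBP1 had 2 of them.
ATR: CCCgCCCgcttgCCCCgCCCCC
TOPBP1, the first: CCCgCCCagcaaagCCCtaaaCCC
TOPBP1, the second: CCCaagctttCCCtgaagCCCCaccgCCC
TP53BP1: CCCCCttcctCCCaccacgCCCtCCCC

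Letters of the E2F site, the element through which S phase genes are switched on, were searched as TTTGGCGC, TTTCGCGC and TTTCCCGC on both strands. They were found in 2 of the 10 members and in 4.53% of protein-coding genes. CLSPN held GCGGGAAA with its first base at -5 from the annotated start, and TOPBP1 held GCGCGAAA with its first base at -7. Such matches describe letters only, and whether a factor binds there was not tested.

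Of the sensor genes, ATRIP was called at 24 h and 72 h, and the kinase genes ATM and ATR were not called at any time. ATM (ENSG00000149311.17, GRCh38 chromosome 11, in a locus from 108157214 to 108467531, with positions as the tables give them) measured 20.4 FPKM in the 3 h control and 20.5 FPKM with PDP. Put on the scale of the 3 h table, its PDP values were 20.7 FPKM at 24 h and 25.6 FPKM at 72 h. The 72 h log2 fold change of 0.33 (SE 0.59) was not called (q = 0.471 in the authors' deposited table). NPAT, a regulator of histone genes that shares the locus with ATM, stood at 6.27 FPKM at 72 h (control 11.0 FPKM) and was not called either (q = 0.129).

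ATR (ENSG00000175054.14, chromosome 3, 142449234 to 142578826) measured 14.0 FPKM in the control and, on the same scale, 14.2, 17.9 and 15.9 FPKM with PDP at 3 h, 24 h and 72 h. Its 24 h value gave the highest log2 fold change of the 10 genes at that time, 0.35 (SE 0.35), which was not called (q = 0.237 in the authors' deposited table). The level of ATR thus lay at or above the control at every time, and none of these differences was called.

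ATRIP (ENSG00000164053.18, chromosome 3, 48446709 to 48467645), whose protein recognises RPA on single-stranded DNA and carries ATR to it, was the member with the largest fall. Its level went from 10.7 FPKM in the control to 9.13, 6.12 and 3.58 FPKM with PDP at 3 h, 24 h and 72 h. It was called lower at 24 h (log2 fold change -0.80, SE 0.31, q = 0.00446) and at 72 h (-1.58, SE 0.45, q = 0.000393) in the authors' deposited tables. At 72 h the control was 2.98 times the PDP value. The RNA came from whole cultures, where less transcript in each cell and fewer cells that hold it cannot be told apart.

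The other ID with the symbol ATRIP, ENSG00000282827.1, lies in the same locus and was low. It went from 1.86 FPKM in the control to 1.60 FPKM with PDP at 3 h, and was called lower at 24 h (0.538 against 1.93 FPKM, q = 0.0389) and 72 h (0.532 against 1.80 FPKM, q = 0.0292) in the authors' deposited tables. Both IDs overlap, and both overlap TREX1, the gene of a DNA exonuclease, which ends where ATRIP ends in RefSeq. TREX1 was at 0.000674 FPKM in the 3 h control and at 0.509, 1.27 and 0.254 FPKM with PDP at 3 h, 24 h and 72 h in its 3 tables. It was tested at 24 h alone, and not called there (q = 0.0621). How fragments were shared among these overlapping models is not stated, so the split between them is uncertain. Both IDs were called lower at the same times.

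**Figure D2:**
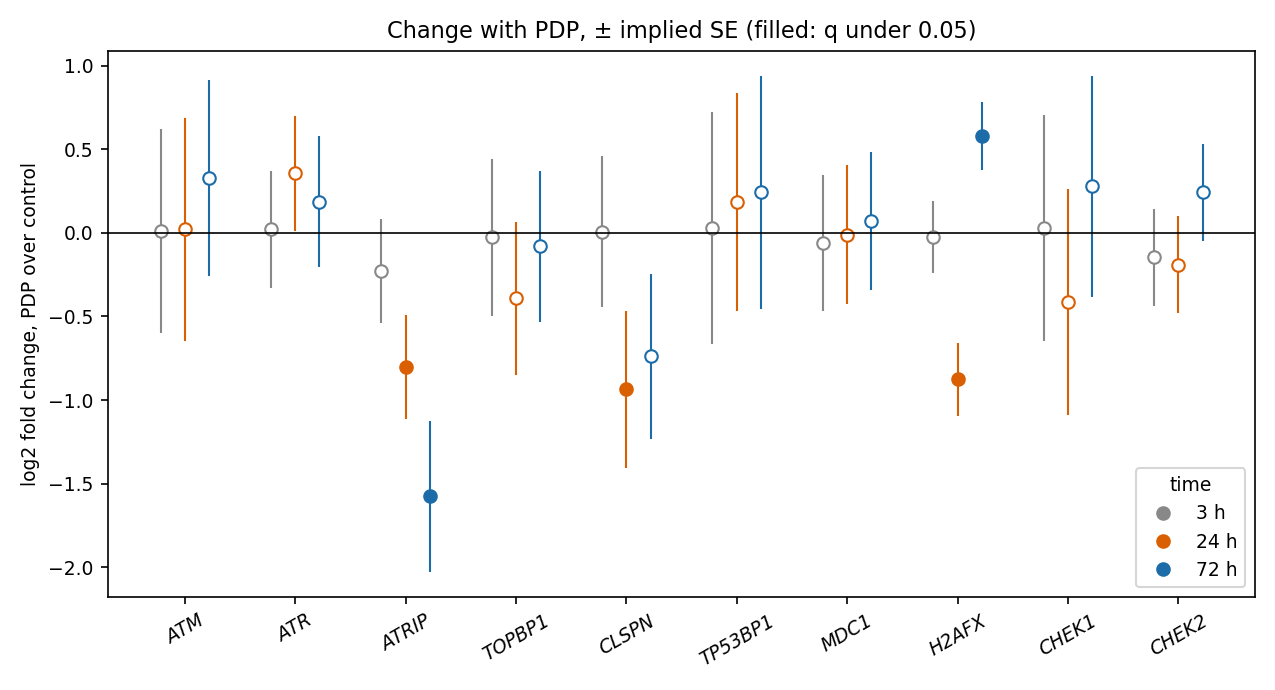
Points are log2 fold changes of PDP over control for each gene at 3 h (grey), 24 h (orange) and 72 h (blue), with lines of ± 1 implied SE, and filled points were called. ATRIP lies lower at each later time, H2AFX crosses from -0.88 to 0.58, and the lines of most other genes cross 0.

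Among the mediators, CLSPN fell while TP53BP1 and MDC1 were not called. CLSPN (ENSG00000092853.13, chromosome 1, 35720217 to 35769967) encodes claspin, which holds CHK1 to ATR at the fork. It measured 29.5 FPKM in the control, 29.6 with PDP at 3 h, 15.4 at 24 h and 17.7 at 72 h on the 3 h scale. Its 24 h log2 fold change of -0.94 (SE 0.47) was the largest in size among the members at that time and was called (q = 0.0283 in the authors' deposited table). At 72 h its change of -0.74 (SE 0.49) was not called (q = 0.0731 in the authors' deposited table).

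TOPBP1 (ENSG00000163781.12, chromosome 3, 133598174 to 133661893), the activator of ATR, had the highest control level of the members, 60.3 FPKM. With PDP it measured 59.1, 46.0 and 57.0 FPKM at 3 h, 24 h and 72 h. Its 24 h log2 fold change of -0.39 (SE 0.46) was not called (q = 0.336 in the authors' deposited table), and the 72 h value was again near the control. TP53BP1 (ENSG00000067369.13, chromosome 15, 43358171 to 43510728), which encodes the 53BP1 protein that guards broken ends from resection, measured 12.5 FPKM in the control and 12.8, 14.2 and 14.8 FPKM with PDP. Its largest log2 fold change, 0.24 (SE 0.70) at 72 h, was not called (q = 0.591). In the same locus TUBGCP4, a gene of the gamma-tubulin ring, fell to 12.1 FPKM at 72 h (control 22.1 FPKM, log2 fold change -0.87, SE 0.51, q = 0.0052 in the authors' deposited table).

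MDC1 (ENSG00000137337.14, chromosome 6, 30699806 to 30717889), whose protein reads phosphorylated H2AX, moved least over the series. It measured 39.9 FPKM in the control and 38.2, 39.6 and 41.8 FPKM with PDP, so that its highest level was 1.10 times its lowest. The sign of its change at 24 h and at 72 h (log2 fold change -0.011 and 0.068) turns when each condition is scaled to the same sum of FPKM.

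H2AFX (ENSG00000188486.3, chromosome 11, 119093853 to 119095467) was called in opposite directions at the later times. Its protein, H2AX, is the histone whose phosphorylated tail marks chromatin around a break. The level was 57.0 FPKM in the control and 56.1 at 3 h, then 31.1 at 24 h and 85.1 at 72 h on the 3 h scale. The 24 h value fell by 45.5% (log2 fold change -0.88, SE 0.22, q = 0.000908), and the 72 h value rose by 49.1% (0.58, SE 0.20, q = 0.000737) in the authors' deposited tables. On 1 scale the 72 h level was above the 24 h level by 1.45 on the log2 scale, a step that the pooled values cannot test. H2AFX had the lowest implied SE of the members. Its transcript is known in a form with a poly(A) tail and a form that ends in a histone stem-loop, and only poly(A) RNA was captured here, so these values need not stand for both forms.

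The effector kinase genes CHEK1 and CHEK2, like H2AFX, had their lowest values at 24 h and their highest at 72 h, but neither was called. CHEK1 (ENSG00000149554.12, chromosome 11, 125569215 to 125681123) encodes CHK1, the kinase that ATR activates. It measured 47.9 FPKM in the control and 48.9, 36.0 and 58.0 FPKM with PDP at 3 h, 24 h and 72 h. The log2 fold changes of -0.41 (SE 0.67) at 24 h and 0.28 (SE 0.66) at 72 h were not called (q = 0.49 and 0.612 in the authors' deposited tables). Its SE was among the widest of the members, and its locus also holds STT3A and EI24, at 198 and 149 FPKM in the 3 h control.

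CHEK2 (ENSG00000183765.20, chromosome 22, 28687742 to 28757515) encodes CHK2, the kinase that ATM activates. It measured 31.2 FPKM in the control and 28.2, 27.4 and 36.9 FPKM with PDP. Its log2 fold changes of -0.19 (SE 0.29) at 24 h and 0.24 (SE 0.29) at 72 h were not called (q = 0.57 and 0.373 in the authors' deposited tables). The genome holds several pseudogene copies of CHEK2, which can share its reads, and 4 of them (CHEK2P2 to CHEK2P5) were listed at 0 FPKM in both conditions of every table.

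**Figure D3:**
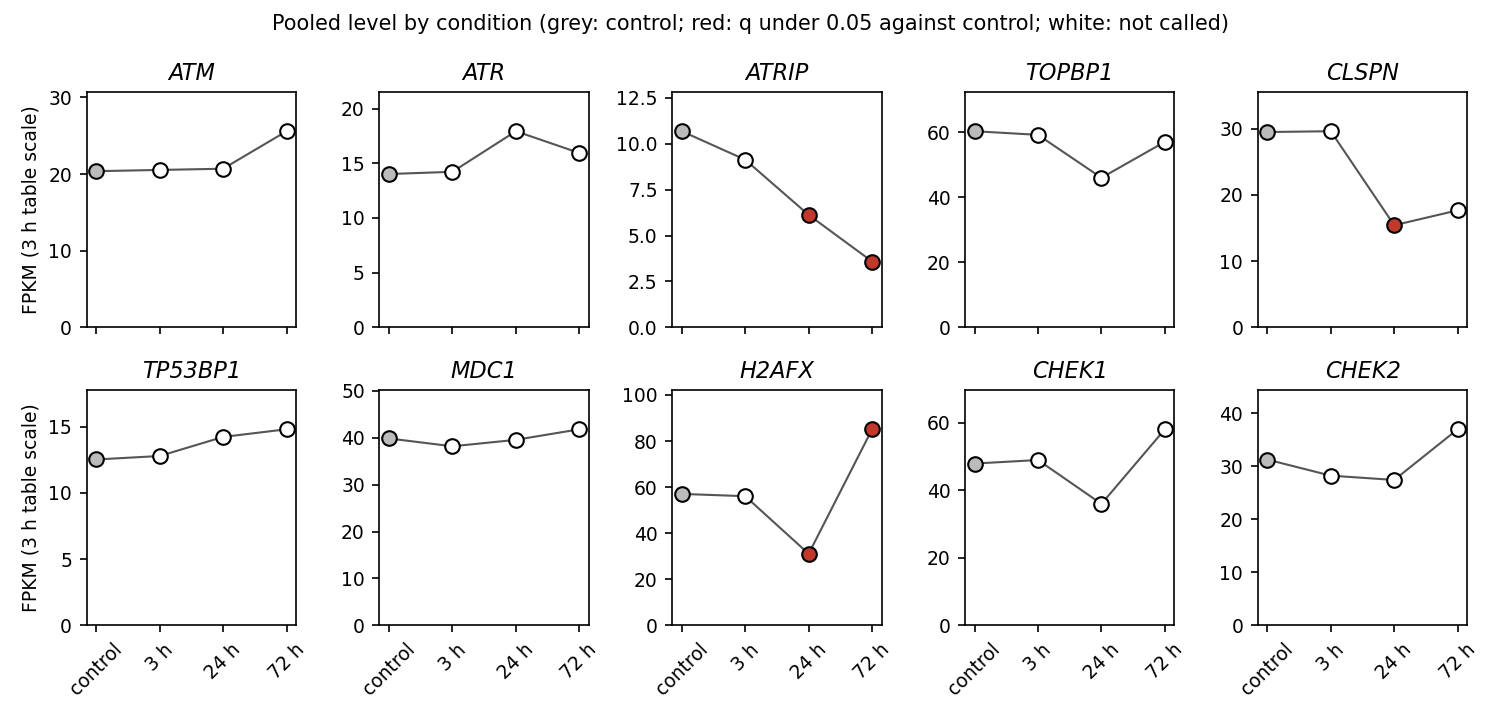
Each panel gives the pooled FPKM of 1 gene, on the scale of the 3 h table and from 0, in the control and with PDP at 3 h, 24 h and 72 h, with grey for the control, red for a call and white for no call. H2AFX dips to 31.1 and climbs to 85.1 FPKM, ATRIP steps down to 3.58 FPKM, and ATM, ATR, TP53BP1 and MDC1 stay between 12.5 and 41.8 FPKM.

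FPKM is a level per length, so the members can also be ranked against each other, though pooled values do not show which neighbours differ beyond their spread. In the control the order was TOPBP1, H2AFX, CHEK1, MDC1, CHEK2, CLSPN, ATM, ATR, TP53BP1 and ATRIP, from 60.3 down to 10.7 FPKM. At 24 h CLSPN had moved from sixth to eighth and H2AFX from the second to the fourth place. At 72 h H2AFX was first and CHEK1 second, with TOPBP1 next. ATRIP was the lowest throughout.

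Across the wider checkpoint pathway, more genes were called lower than higher at both later times. The list held 44 other genes, all tested. The authors' deposited tables called none at 3 h (and none had an unadjusted p under 0.05), 2 higher and 10 lower at 24 h, and 3 higher and 11 lower at 72 h. These are 27.3% and 31.8% of the list, beside 17.5% and 31.8% of all tested genes. Among all tested genes rises outnumbered falls, with 9.21% against 8.29% at 24 h and 19.0% against 12.8% at 72 h. The medians of the list were -0.014, -0.17 and -0.088 on the log2 scale, beside -0.0026, -0.0029 and 0.13 for all tested genes. Whether the list differs from all tested genes in direction was not tested.

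Of the 6 clamp, loader and activator genes of ATR, 2 were called at 24 h and 1 at 72 h. HUS1, a clamp subunit, fell to 13.9 FPKM at 24 h (control 21.0, log2 fold change -0.59, SE 0.29). ETAA1, which activates ATR apart from TOPBP1, rose at 24 h from 9.63 to 14.3 FPKM (0.58, SE 0.23) and fell at 72 h from 8.96 to 6.05 FPKM (-0.57, SE 0.24). Among the 3 RPA genes, RPA2 was the 1 called, falling at 24 h from 101 to 68.5 FPKM and at 72 h from 94.6 to 69.5 FPKM. TIPIN, which with TIMELESS steadies the fork and helps claspin, fell to 37.9 FPKM at 24 h (control 61.3) and 33.7 FPKM at 72 h (control 57.1). CLSPN and TIPIN were both called lower at 24 h. TIPIN was the 1 called of the 3 fork protection genes, and TIMELESS was not called (log2 fold change -0.17 at 24 h).

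On the side of ATM, NBN, the subunit of the break sensor that recruits the kinase, fell at 24 h from 30.3 to 17.8 FPKM (-0.77, SE 0.34) and at 72 h from 28.2 to 19.0 FPKM. NBN was the 1 called of the 4 break sensor genes at both times. RAD50 (log2 fold change 0.015 at 24 h and 0.54 at 72 h), MRE11A (-0.18 and 0.091) and KAT5 (-0.38 and 0.25) were not called. Among the 11 genes of chromatin ubiquitin marks and their readers, RIF1, a partner of 53BP1, fell to 23.4 FPKM at 24 h (control 38.0) and 19.2 FPKM at 72 h (control 35.3). BRCC3, a deubiquitinase, fell at 24 h from 36.6 to 25.5 FPKM and at 72 h from 34.1 to 16.2 FPKM. RNF169 rose at 24 h from 11.2 to 15.8 FPKM, and UIMC1, which encodes the ubiquitin reader RAP80, rose at 72 h from 16.3 to 32.8 FPKM. TELO2, a chaperone of ATM, ATR and related kinases, fell at 72 h from 51.2 to 32.5 FPKM. It was the 1 called of the 5 genes in its role group at that time.

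Of the 8 effector genes 5 were called at 72 h, 2 higher and 3 lower, or 62.5% beside 31.8% of all tested genes. That share was the highest among the role groups, all of them small, and the other groups ran from 16.7% to 33.3% at 72 h. At 24 h 2 effector genes were called. Whether effectors differ from the rest of the list was not tested. CDC25A, the phosphatase that CHK1 marks for destruction, fell to 35.0 FPKM at 24 h (control 56.5) and 31.8 FPKM at 72 h (control 52.7). PKMYT1, an inhibitory kinase of CDK1, fell at 24 h from 56.2 to 35.0 FPKM, and WEE1, another such kinase, rose at 72 h from 30.6 to 41.3 FPKM. MDM2, a ubiquitin ligase, fell at 72 h from 37.6 to 12.8 FPKM (-1.56, SE 0.69), while MDM4, its partner, rose from 16.7 to 41.1 FPKM. Of the genes that switch the checkpoint off, PPM1D, the phosphatase WIP1, fell to 8.83 FPKM at 24 h (control 12.4) and 5.57 FPKM at 72 h (control 11.5), and PPP2CA fell at 24 h from 60.5 to 37.5 FPKM.

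**Figure D4:**
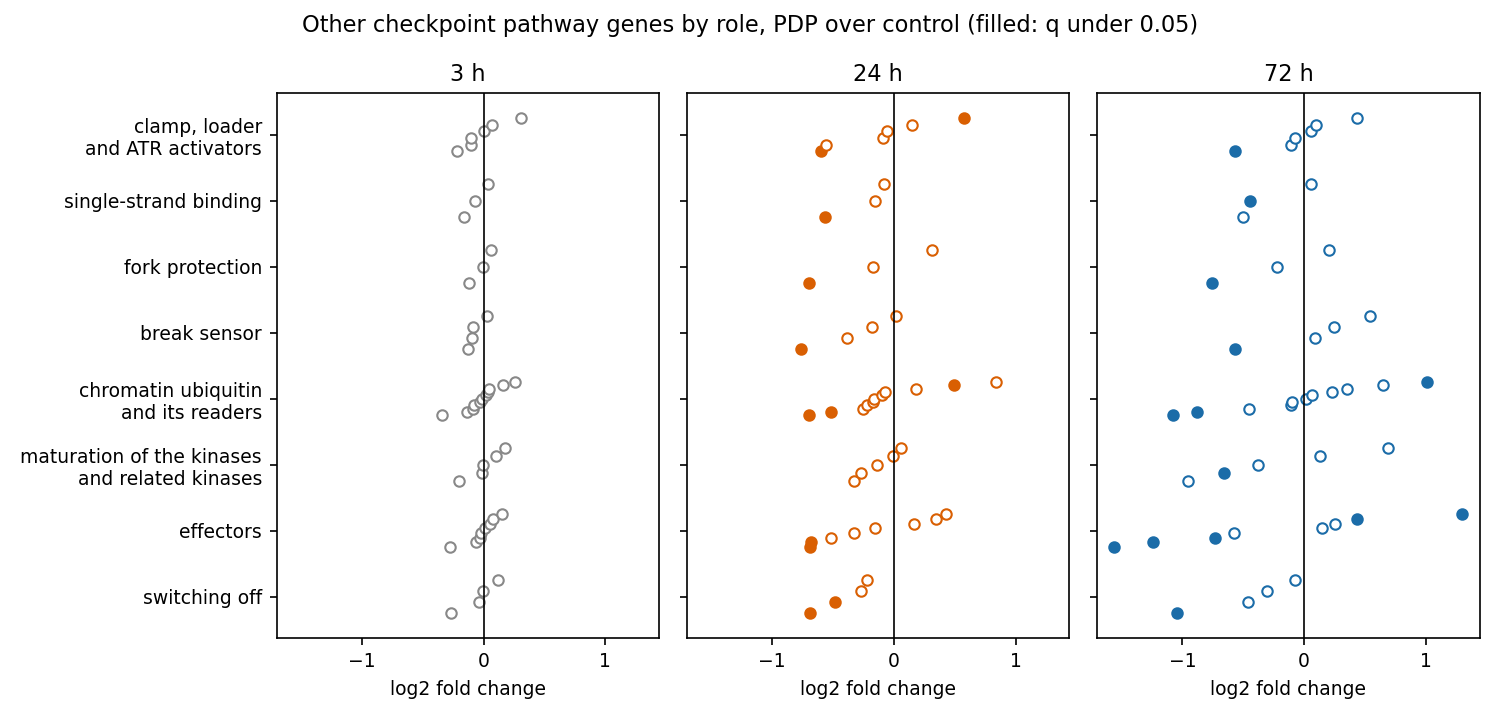
Points are the log2 fold changes of 44 other checkpoint genes at 3 h, 24 h and 72 h, in rows by role, and filled points were called. The filled points lie mostly left of 0 at 24 h (10 of 12) and at 72 h (11 of 14).

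The rule that took the genes by symbol did not use the pull-down peaks. Earlier results of these data were known when the genes were chosen. The deposited list gives 51446 peaks, merged over both replicates, and holds no time points. Peak centres lay in the loci of 6 of the 10 members, and 56.1% of 10234 loci with an expressed gene held one. Member loci held 12 peaks, or 1.29 per 100 kb (95% exact Poisson interval 0.668 to 2.26, counting error only), against 1.96 per 100 kb (1.93 to 1.99) over loci with an expressed gene. The interval of the members includes the value of the larger set.

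None of the peaks lay in a promoter window of the members, and 0 of 10 had a peak centre within 1 kb of the start. The same share over all genes was not counted, so whether the 0 sets the members apart cannot be said. The density of 1.96 peaks per 100 kb is an average over whole loci with an expressed gene. It need not hold at start sites. The nearest peak to a start was that of ATR, 6.49 kb upstream, followed by H2AFX, 7.47 kb upstream, and MDC1, 9.26 kb upstream. CLSPN, with 3 peaks inside the gene, had its nearest 9.96 kb into the gene. ATRIP and CHEK1 had no peak in their loci or within 10 kb of them, and H2AFX had none in its locus of 1.61 kb. The highest-scoring peak in a member was at chr3:142543237-142543659 in ATR, with a deposited score of 24.7, above 95.3% of all peaks. Of the 3 genes called at 24 h, CLSPN held peaks and ATRIP and H2AFX did not, and a link between peaks and calls was not tested.

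**Figure D5:**
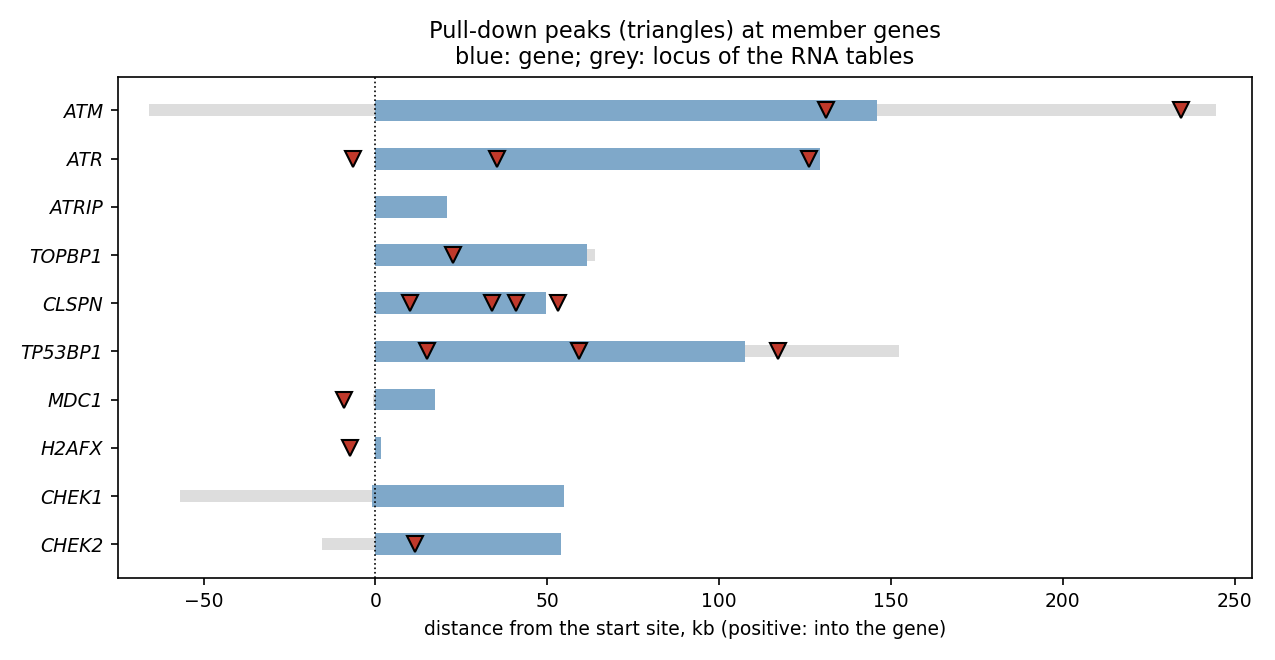
The horizontal axis is the distance in kb from the annotated start of each gene, positive into the gene, with blue bars for the gene and grey bars for the locus of the RNA tables. Triangles are pull-down peaks in the locus or within 10 kb of it. No triangle touches a start, and ATRIP and CHEK1 have none.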

How the data were processed

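RNA libraries were made with the VAHTS Stranded mRNA-seq kit from poly(A) RNA, and DNA libraries with the ThruPLEX DNA-seq kit, per the labels' protocols. Trim Galore 0.4.4, HISAT2 2.0.5, Cufflinks 2.2.1, Bowtie2 2.2.9, SAMtools 1.3.1, Picard, HOMER 4.9.1 and GRCh38.p7 are named in the submitters' processing notes, with no settings, and strand use in counting is not stated there. The authors' deposited RNA tables are laid out as Cuffdiff writes a gene test and hold FPKM pooled over replicates. The p-value and q-value are the authors' deposited ones, adjusted over all genes they tested. The authors' deposited test statistic, a score, served for the implied SE alone (log2 fold change over statistic), and the deposited peak score has no stated unit. Depth per library is unknown.

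Log2 fold changes were computed from the deposited FPKM with no pseudocount. "Expressed" means a geometric mean FPKM of at least 1. Values of the 24 h and 72 h tables were divided by the median ratio of their control to the 3 h control. Peaks were assigned by centre. Promoters were matched by symbol for 10 of 10 members (RefSeq, GRCh38.p14, H2AFX as H2AX), with 14 windows. The planned count of SQ and TQ pairs in proteins was not run. The members, lists and rules were chosen with earlier results of these data known. All members were named, with up to 2 called pathway genes per role, direction and later time. The values of 1 gene of the pathway list are not reported here. Adjustment, motif search and peak counting were tested on simulated data. Scripts ran under Python 3.11.15, using pandas 2.3.3, NumPy 2.4.6, Matplotlib 3.10.9 and SciPy 1.17.1.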

Additional observations from a re-analysis of the deposited data

Results flagged for a closer look

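H2AFX was called in opposite directions at 2 times, with a log2 fold change of -0.88 at 24 h and 0.58 at 72 h in comparisons that share the control. ETAA1, of the wider pathway, did the reverse, with 0.58 at 24 h and -0.57 at 72 h. For both genes the difference between the times was not tested, because the tables hold pooled values.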

How the results depend on the processing

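No paired analysis was possible because the tables hold values pooled over replicates, and for the same reason no replicate could be left out. Requiring a log2 change of at least 1 left 0 of 3 member calls at 24 h and 1 of 2 at 72 h, and 0 of 12 and 6 of 14 in the wider pathway. A q under 0.01 left 5 pathway calls and 2 member calls at 24 h, without CLSPN. With each condition scaled to the same FPKM sum the member medians came to 0.045 (3 h), -0.12 (24 h) and 0.11 (72 h). The 72 h median was 0.11 relative to that of all expressed genes, and the mean in place of the median was -0.047. Over a pseudocount and the 2 scalings, all 90 member values moved by less than their implied SE. At each time a scaling shifts every gene by the same amount, at most 0.17. The smallest implied SE of a member was 0.20, so for the scalings this outcome was fixed beforehand. The unadjusted p and the RefSeq gene span were alternatives added after seeing the data. Members with a peak numbered 6 in the locus, 6 within 5 kb of it, 8 within 10 kb of it, 4 with the upper-scoring peaks alone and 6 in the RefSeq span.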
